A study of Mus musculus with 2 samples.

Results

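The 38 genes described here are p53 and its regulators, genes listed as p53 targets and the Gadd45 stress genes. The others are the DNA damage kinases with a mediator, and genes of homologous and mismatch repair. The 38 genes were taken by name from a count table of 27179 mouse genes, and all were found. The cells were ALL65, a single primary T cell acute lymphoblastic leukaemia (T-ALL) that had arisen in a mouse with the transgenes Vav-tTA and TRE-GFP-shIkaros and was carried in recipient mice. In such cells the tetracycline transactivator tTA, under the Vav promoter of blood-forming cells, drives a hairpin RNA against Ikaros (Ikzf1) linked to green fluorescent protein (GFP). Doxycycline (Dox) turns the hairpin off, and Ikaros returns from the cells' own gene. The Dox group was GFPmid cells from the spleens of leukaemic mice given Dox for 3 days, and the untreated group was GFPhigh cells from the spleens of leukaemic mice without Dox, so the sort gate differed along with the treatment. Both groups carried both transgenes, and neither the age nor the strain of the mice is given in the sources used here.

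The transcription factor p53 is held low in unstressed cells by Mdm2, a ubiquitin ligase that is itself a p53 target, and by its relative Mdm4. Broken or stalled DNA activates the kinases Atm and Atr, which signal through Chek2 and Chek1 to p53 and to the repair machinery. In thymocytes p53 is a strong inducer of cell death after DNA damage, and its loss is a known route to T cell leukaemia in mice.

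To show what the promoters of these genes look like, stretches that hold a sequence match were read from RefSeq (GRCm38.p6, the assembly behind mm10). A window from 250 bases before to 50 bases after a listed start was given for 29 of the 38 genes, 34 windows in all. Those without one were Trp53inp1, Zmat3, Perp, Rrm2b, Xpc, Ddb2, Fancd2, Rad50 and Nbn. The p53 half-site decamer, a palindromic pattern to which p53 binds as a pair of copies, matched 9 of the 34 windows (26.5%) and 8.36% of all 32851 windows, which also cover non-coding genes. The matching genes were Trp53, Mdm2, Ccng1, Aen, Ei24, Polk, Gadd45a and Fanca. They are printed 5′ to 3′ on the gene's own strand with the decamer in capitals.
Trp53, chr11:69580259-69580318, plus strand: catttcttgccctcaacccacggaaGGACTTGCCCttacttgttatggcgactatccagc
Mdm2, chr10:117710910-117710969, minus strand: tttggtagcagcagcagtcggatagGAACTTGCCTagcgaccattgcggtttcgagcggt
Ccng1, chr11:40755437-40755496, minus strand: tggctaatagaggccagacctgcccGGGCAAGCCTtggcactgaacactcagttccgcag
Gadd45a, chr6:67037413-67037472, minus strand: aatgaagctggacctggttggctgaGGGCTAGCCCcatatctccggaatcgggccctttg
Ei24, chr9:36797335-36797369, minus strand: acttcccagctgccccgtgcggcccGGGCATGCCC
Aen, chr7:78895927-78895956, plus strand: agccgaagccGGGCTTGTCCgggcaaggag
Polk, chr13:96519399-96519428, minus strand: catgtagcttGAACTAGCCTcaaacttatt
Fanca, chr8:123318621-123318650, minus strand: gggtgtggtcAAGCATGCTCctagccaatg

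The stretches of Aen, Polk and Fanca are shorter because they lie within the span of the gene, and that of Aen falls in the windows of 2 listed starts. Each of these matches is a half-site, and a match describes letters only. Only exact single decamers were sought. A neighbouring inexact copy, such as the letters just before the capitals of Ccng1, is therefore not marked. The same 34 windows were also searched for the E2F octamers TTTCCCGC and TTTGGCGC and their reverse complements GCGGGAAA and GCGCCAAA, patterns common in promoters of replication genes. These matched 3 of 34 windows (8.82%) and 1.56% of all windows. The octamer stands in capitals.
Brca2, chr5:150522443-150522470, plus strand: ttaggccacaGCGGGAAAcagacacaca
Chek2, chr5:110839821-110839848, plus strand: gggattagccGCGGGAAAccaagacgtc
Msh6, chr17:87975055-87975082, plus strand: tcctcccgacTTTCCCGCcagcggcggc

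The core letters TGGGAA, which Ikaros can bind, or their reverse complement TTCCCA, were in 10 of 34 windows (29.4%) and in 25.6% of all windows, and 0 matches of different motifs overlapped.

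Each group had 1 library, with 14457475 counts for Dox and 7477988 for untreated, so no replicate error, test or p-value exists for any value below. Levels are in CPM, the usual measure of counts relative to library size, with the library size scaled by the trimmed mean of M values (TMM). Ratios are Dox over untreated on the log2 scale with a prior count of 2, and the bounds beside them are exact 95% intervals that cover counting error only. Ikzf1, the target of the hairpin, stood at 1455 CPM in the Dox library and 262 CPM in the untreated library, a log2 ratio of 2.47 (2.41 to 2.54). The 8 T lineage markers, among them Cd3e, Lck and Thy1, were abundant in both libraries, from 94.97 to 1329 CPM with Dox and from 53.4 to 1338 CPM without. Cd4 at 0.83 (0.67 to 0.99), Cd8a at 0.80 (0.75 to 0.85) and Cd247 at 0.78 (0.70 to 0.85) had the highest log2 ratios of the 8. Cd3e, Lck and Thy1 lay within 1.5-fold. Of the 8 intervals, 4 were wholly above 0 and 4 wholly under it, and the median ratio was 0.0006. Those under 0 were Cd3g at -0.28 (-0.35 to -0.21), Cd3d at -0.25 (-0.31 to -0.18), Lck at -0.21 (-0.25 to -0.18) and Cd3e at -0.09 (-0.17 to -0.01). Of 24 markers of B, myeloid, NK, erythroid, dendritic, stromal and endothelial cells, 22 were under 5 CPM in both libraries and 8 had 0 counts in both. Their summed level was 23.5 CPM with Dox and 20.3 CPM without. The markers above 5 CPM were both myeloid and went in opposite directions, Itgam at 14.7 CPM with Dox and 8.42 CPM without, and Lyz2 at 1.69 CPM with Dox and 7.24 CPM without.

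Most of the p53 and damage response genes stood at similar levels in both libraries. Under a minimum of 5 CPM in whichever library was higher, 31 of 38 could be compared, and 28 of these lay within 1.5-fold. Trp53inp1 and Gadd45a were at least 1.5-fold higher with Dox, 2 of 31 genes, while 6.28% of all 10113 genes past the same minimum were. Nbn was at least 1.5-fold lower, 1 of 31 genes, beside 6.18% of all genes. At least 2-fold higher was 1 gene, Trp53inp1, beside 2.21% of all genes, and at least 2-fold lower were 0, beside 2.24%. These shares do not set the 38 genes apart from the rest of the table. A ratio above 0 was found for 12 of the 31, beside 51.8% of all genes, and one under 0 for 19, beside 48.2%. The median log2 ratio of the 31 was -0.10, with the middle of them between -0.19 and 0.18 (quartiles), and that of all genes was 0.01, with quartiles of -0.18 and 0.20.

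**Figure D1:**
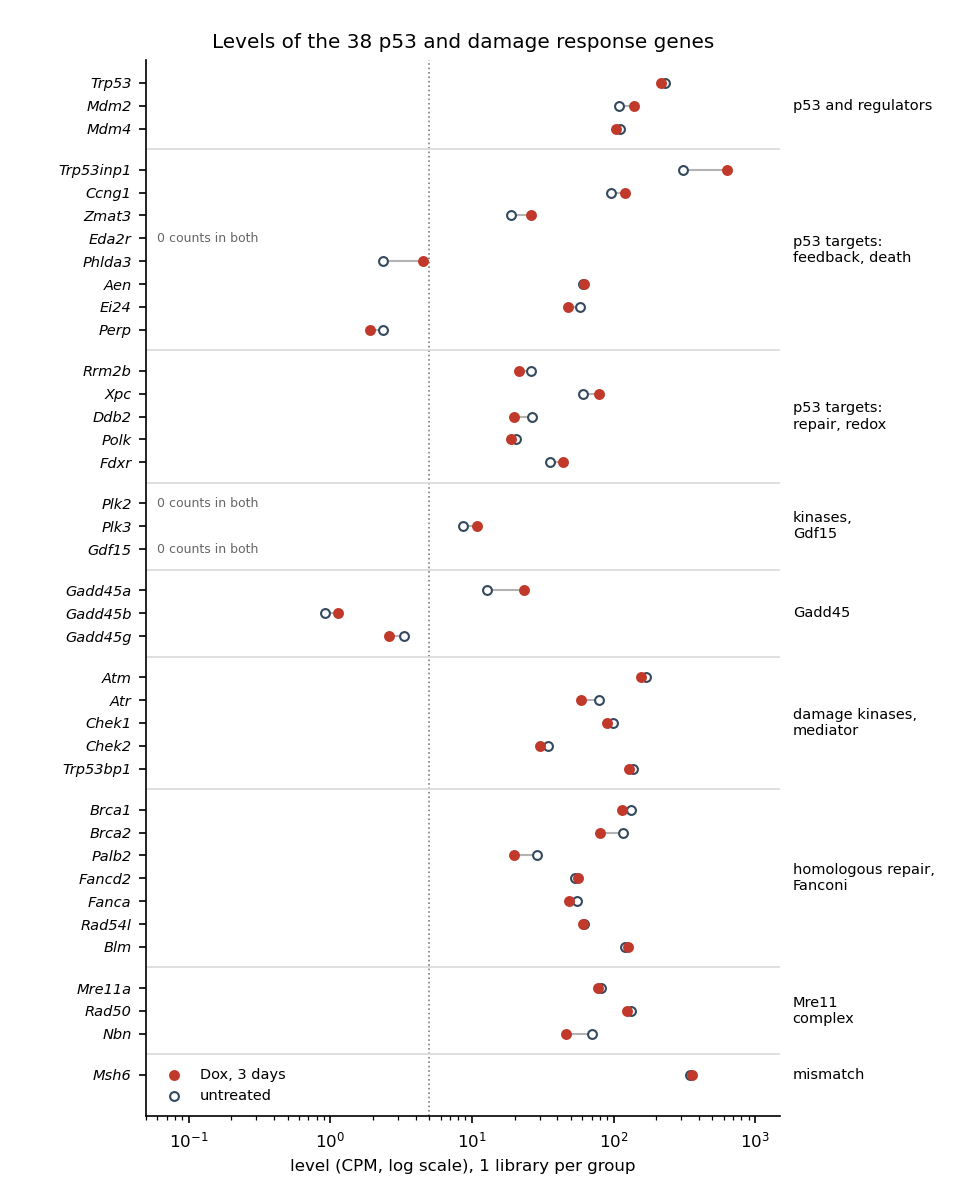
Level of each of the 38 genes in CPM on a log axis, as filled points for the Dox library and open points for the untreated library, grouped by role, with the 5 CPM minimum dotted. The pair of points lies farthest apart for Trp53inp1, Gadd45a and the low gene Phlda3, and 3 genes had 0 counts in both libraries.

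Trp53 itself was abundant and nearly level. It stood at 215 CPM with Dox and 230 CPM without, from 3063 and 1750 counts, and its log2 ratio was -0.10 (-0.18 to -0.01). Per kilobase of gene length it had the highest mean level of all 38 genes, 119 CPM per kb. Mdm2, the ubiquitin ligase that removes p53, was 1.26-fold higher at 139 CPM with Dox and 110 CPM without, a ratio of 0.33 (0.22 to 0.45). Mdm4, which binds p53 and blocks its activity, stood at 104 and 112 CPM, a ratio of -0.10 (-0.22 to 0.03). Since 2 genes of 1 library share its depth, the level of Mdm2 relative to another gene needs no scaling between libraries. Per kilobase, Mdm2 stood at 0.398 of the level of Trp53 with Dox and at 0.295 without, a log2 difference of 0.43 (0.29 to 0.58). Against Mdm4 it stood at 1.53 with Dox and 1.14 without, also a difference of 0.43 (0.26 to 0.60). Mdm2 thus gained on both partners by more than counting error, though each change was under 1.5-fold.

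Among the p53 targets that act in feedback and cell death, Trp53inp1 stood apart. This gene encodes a stress protein that promotes p53 activity and autophagy. It had 8966 counts with Dox and 2355 without, 630 and 310 CPM, 2.03-fold higher with Dox on the log2 ratio of 1.02 (0.96 to 1.09). Of the 31 genes past the minimum it had the largest ratio, and the interval's lower bound was under 2-fold. Scaled by total counts in place of TMM its ratio was 0.98, under 2-fold. Per kilobase its level was 1.01 of that of Trp53 with Dox and 0.463 without.

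The other targets of this class varied in both directions. Ccng1, which encodes cyclin G1 and feeds back on Mdm2, stood at 121 CPM with Dox and 95.8 CPM without, a ratio of 0.34 (0.22 to 0.47). Zmat3, an RNA-binding protein, stood at 26.1 and 18.9 CPM, a ratio of 0.46 (0.18 to 0.75). The nuclease gene Aen was level at 62.2 CPM with Dox and 60.8 CPM without, a ratio of 0.03 (-0.13 to 0.20). Ei24, an endoplasmic reticulum protein linked to autophagy, was lower at 47.7 and 57.6 CPM, a ratio of -0.27 (-0.45 to -0.10). Ccng1, Aen and Ei24 are among the genes with a half-site printed above.

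Several targets of this class were near or under detection. Phlda3, an inhibitor of Akt, had 64 counts with Dox and 18 without, 4.50 and 2.37 CPM, just under the minimum, with a ratio of 0.88 (0.15 to 1.77). Perp, a membrane protein of p53-dependent death, had 27 and 18 counts and a ratio of -0.29 (-1.23 to 0.63). Eda2r, a receptor of the tumour necrosis factor family, had 0 counts in both libraries, which allows up to 0.211 CPM with Dox and 0.395 CPM without. The class median was 0.34 over the 5 genes past the minimum.

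The targets of nucleotide supply, repair and redox went in both directions as well, with a median of -0.11 over 5 genes. Xpc, which detects bulky damage for nucleotide excision repair, was 1.30-fold higher at 78.8 CPM with Dox and 60.4 CPM without, a ratio of 0.38 (0.23 to 0.54). Ddb2, its partner in finding ultraviolet damage, was 1.34-fold lower at 19.7 and 26.4 CPM, a ratio of -0.42 (-0.69 to -0.16). The level of Xpc per kilobase was 2.11 times that of Ddb2 with Dox and 1.21 times without, a log2 difference of 0.81 (0.51 to 1.11). The Ddb2 value carries a limit, since its exons share 621 bases with Acp2 on the other strand, and Acp2 had a ratio of -0.34 (-0.60 to -0.08). Fdxr, the mitochondrial ferredoxin reductase, stood at 43.7 CPM with Dox and 35.8 CPM without, a ratio of 0.29 (0.08 to 0.50). Rrm2b, the p53-induced subunit of ribonucleotide reductase, stood at 21.5 and 26.2 CPM, a ratio of -0.28 (-0.55 to -0.02). The translesion polymerase gene Polk stood at 19.0 and 20.5 CPM, a ratio of -0.11 (-0.40 to 0.18).

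Of the p53-linked kinases and the secreted factor Gdf15, 1 was measured. Plk3, a stress-activated polo-like kinase, stood at 10.8 CPM with Dox and 8.68 CPM without, a ratio of 0.31 (-0.11 to 0.76). Plk2 and Gdf15 had 0 counts in both libraries.

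The Gadd45 genes encode small stress proteins that bind cell cycle regulators and stress kinases, and Gadd45a is also a p53 target. Gadd45a was 1.83-fold higher, at 334 counts and 23.5 CPM with Dox and 97 counts and 12.8 CPM without, a ratio of 0.87 (0.55 to 1.22). Its exons share 238 bases with E230016M11Rik on the other strand, which had 29 counts with Dox and 3 without. Gadd45b, with 16 and 7 counts, had a ratio of 0.24 (-1.07 to 1.81). Gadd45g, with 37 and 25 counts, had a ratio of -0.32 (-1.11 to 0.45). The intervals of Gadd45b and Gadd45g are too wide at this depth to give a direction. Per kilobase Gadd45a stood at 7.97 times the level of Gadd45g with Dox and 3.43 times without, a log2 difference of 1.22 (0.42 to 2.02).

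**Figure D2:**
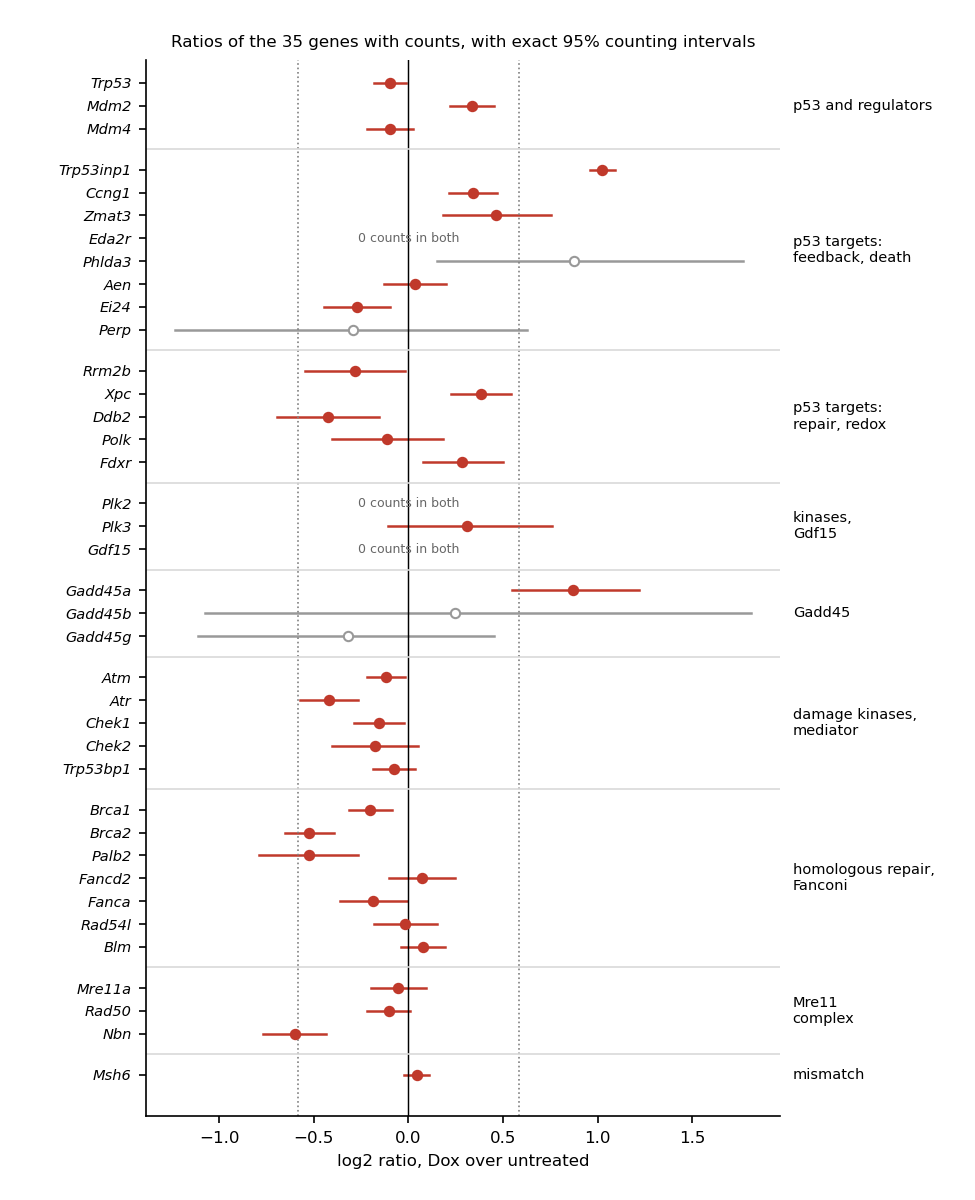
Log2 ratio of Dox over untreated for the 35 genes with counts, with exact 95% counting intervals as bars, filled red past the 5 CPM minimum and open grey under it, and 1.5-fold dotted. Trp53inp1 at 1.02 and Gadd45a at 0.87 lie to the right, while the damage kinases and most repair genes lie slightly to the left of 0, down to Nbn at -0.60.

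The class of damage kinases and the mediator Trp53bp1 stood slightly lower with Dox. All 5 genes of this class had a ratio under 0, with a median of -0.16, beside the 48.2% of all genes given above. The interval was wholly under 0 for 3 of the 5, beside 23.8% of all genes. Atm, which responds to double-strand breaks, stood at 157 CPM with Dox and 170 CPM without, a ratio of -0.12 (-0.22 to -0.02). Atr, which responds to stalled replication, was 1.34-fold lower at 59.2 and 79.2 CPM, a ratio of -0.42 (-0.57 to -0.27). Relative to Atm, the per kilobase level of Atr was 0.559 with Dox and 0.689 without, a log2 difference of -0.30 (-0.48 to -0.12).

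The kinases downstream of Atm and Atr kept their balance within counting error. Chek1, the kinase below Atr, stood at 89.3 CPM with Dox and 99.5 CPM without, a ratio of -0.16 (-0.29 to -0.02). Chek2, the kinase below Atm, stood at 30.2 and 34.2 CPM, a ratio of -0.18 (-0.40 to 0.05). The log2 difference between both was 0.02 (-0.23 to 0.28). The mediator gene Trp53bp1, whose protein steers break repair toward end joining, stood at 130 CPM with Dox and 137 CPM without. Its ratio was -0.08 (-0.19 to 0.03). This value carries a limit, since exons of Trp53bp1 share 2130 bases with Tubgcp4 on the other strand. Tubgcp4 had a ratio of 0.01 (-0.18 to 0.20).

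Genes of homologous repair and the Fanconi pathway, which repairs crosslinks between DNA strands, had a median of -0.19 over 7 members. Brca2, a mediator of strand exchange at broken DNA, was 1.44-fold lower at 80.9 CPM with Dox and 116 CPM without, a ratio of -0.52 (-0.65 to -0.40). Palb2, which joins Brca2 to Brca1, was lower by a similar factor at 19.96 and 28.8 CPM, a ratio of -0.53 (-0.79 to -0.27). Brca1 was closer to level, with 115 CPM under Dox and 133 CPM without Dox and a log2 ratio of -0.20 (-0.31 to -0.09). Relative to Brca1, Brca2 differed by -0.32 (-0.49 to -0.15) and Palb2 by -0.33 (-0.61 to -0.05) on the log2 scale, so both stood lower than Brca1 did by more than counting error.

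The remaining 4 genes of this class were close to level. Fanca, a subunit of the Fanconi core complex, stood at 48.6 CPM with Dox and 55.3 CPM without, a ratio of -0.19 (-0.36 to -0.01). Fancd2, the protein that this complex modifies at damage, stood at 55.96 and 53.3 CPM, a ratio of 0.07 (-0.10 to 0.25). Rad54l, a motor protein of homologous recombination, stood at 60.9 and 61.6 CPM, a ratio of -0.02 (-0.18 to 0.15). Blm, the helicase that dissolves recombination intermediates, stood at 127 and 120 CPM, a ratio of 0.08 (-0.04 to 0.19). The Fanca value carries a limit, since its exons share 552 bases with Zfp276 on the other strand. Zfp276 had a ratio of 0.03 (-0.21 to 0.29).

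Within the Mre11 complex, which binds and trims broken ends and activates Atm, Nbn differed from both other subunits. Nbn, the subunit that recruits Atm, was 1.52-fold lower at 660 counts and 46.4 CPM with Dox, against 535 counts and 70.4 CPM without, a ratio of -0.60 (-0.77 to -0.43). Its interval spans the 1.5-fold threshold, and with Dox counts thinned to the untreated total its ratio was -0.57, within 1.5-fold. The nuclease gene Mre11a stood at 78.0 CPM with Dox and 80.9 CPM without, a ratio of -0.05 (-0.20 to 0.09). The ATPase gene Rad50 stood at 124 and 133 CPM, a ratio of -0.11 (-0.22 to 0.01). Per kilobase Nbn stood at 0.775 of Rad50 with Dox and 1.09 of it without, a log2 difference of -0.50 (-0.70 to -0.30). Against Mre11a the difference was -0.55 (-0.77 to -0.33). Msh6, which recognises mismatched bases, was abundant and level at 359 CPM with Dox and 349 CPM without, a ratio of 0.04 (-0.03 to 0.11).

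By direction, 13 of the 16 genes of damage signalling and repair had a ratio under 0, beside 48.2% of all genes. A counting interval wholly under 0 was found for 8 of the 16, beside 23.8% of all genes. An interval wholly above 0 was found for 0 of the 16, beside 26.9% of all genes. Of the 11 measured genes classed as p53 targets or p53-linked kinases, 5 had an interval wholly above 0, beside 26.9% of all genes. For 3 of the 11 the interval was wholly under 0, beside 23.8% of all genes. The p53 targets Mdm2 at 0.33 (0.22 to 0.45) and Gadd45a at 0.87 (0.55 to 1.22) were classed elsewhere and are not among the 11. The median log2 ratio was -0.14 over the 16 repair and signalling genes. Over the 11 targets it was 0.29, and it was 0.16 with a minimum of 20 CPM in place of 5.

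**Figure D3:**
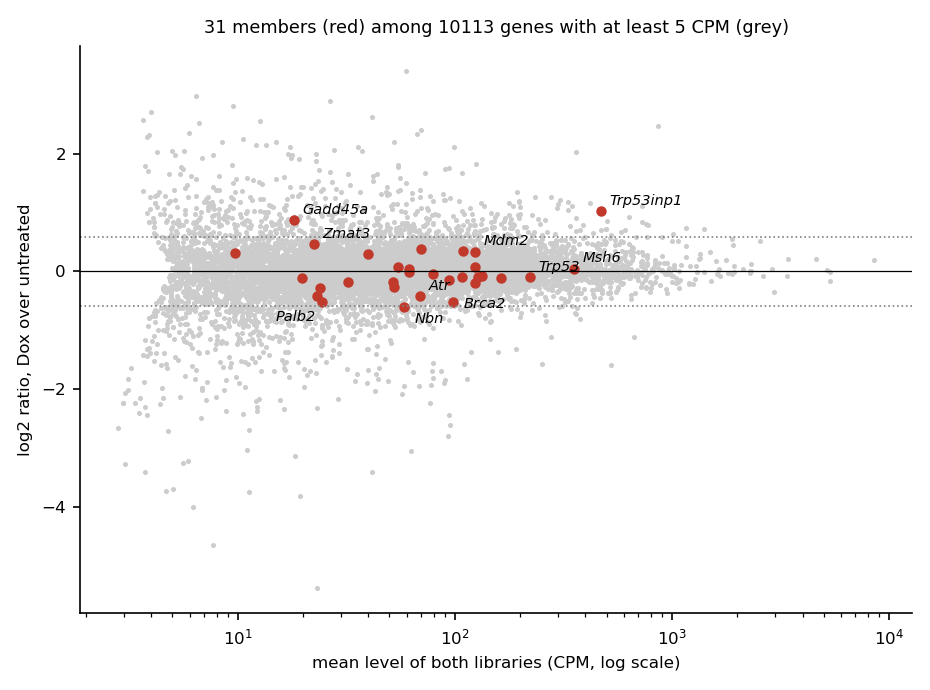
Log2 ratio of Dox over untreated against the mean level in CPM (log axis) for all 10113 genes past the minimum, with the 31 p53 and damage response genes in red and 1.5-fold dotted. The red points lie between the dotted lines except Trp53inp1 and Gadd45a above them and Nbn below them.

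Other genes of the same pathways were taken from lists of general knowledge. Of 35 other genes listed as p53 targets or linked to p53, 25 passed the minimum, and the median was 0.14. Past 1.5-fold with Dox were 4 of the 25 on the higher side, beside 6.28% of all genes, and 2 of the 25 on the lower side, beside 6.18%. The largest ratio by size was that of Psrc1, a spindle protein gene, at 7.45 CPM with Dox and 20.4 CPM without, a ratio of -1.43 (-1.82 to -1.09). It was followed by the death receptor gene Fas at 14.2 and 6.18 CPM, a ratio of 1.18 (0.74 to 1.69). Ddit4, an inhibitor of mTOR signalling that other stresses also induce, stood at 182 and 81.2 CPM, a ratio of 1.16 (1.04 to 1.29).

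A few further p53 targets of arrest and death are named here after their values were seen. Sesn1, an inhibitor of mTOR signalling, stood at 168 CPM with Dox and 96.2 CPM without, a ratio of 0.80 (0.68 to 0.92). The antiproliferative gene Btg2 stood at 261 and 154 CPM, a ratio of 0.76 (0.66 to 0.85). Cdkn1a, the cell cycle inhibitor p21, had 17 counts with Dox and 13 without, a ratio of -0.46 (-1.65 to 0.65). Bax stood at 75.4 CPM with Dox and 74.2 CPM without, a ratio of 0.02 (-0.12 to 0.17). Bbc3, which encodes Puma, stood at 6.19 and 6.58 CPM, a ratio of -0.09 (-0.61 to 0.44). Pmaip1, which encodes Noxa, had 1 count in each library. Sesn1 and Btg2 thus stood higher with Dox by more than counting error, as did Fas, while the intervals of Cdkn1a, Bax and Bbc3 held 0. Of the 25 other p53 targets past the minimum, 10 had an interval wholly above 0, beside 26.9% of all genes. An interval wholly under 0 was found for 3 of the 25, beside 23.8% of all genes. These were Psrc1, Epha2 at -0.93 (-1.32 to -0.56) and Pidd1 at -0.47 (-0.64 to -0.31).

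Of 30 other genes of homologous repair and the Fanconi pathway all passed the minimum, and 19 had a ratio under 0, beside 48.2% of all genes. Past 1.5-fold were 1 of the 30 on the higher side and 3 of the 30 on the lower side, beside 6.28% and 6.18% of all genes. Among the lower ones were Fance at 20.03 CPM with Dox and 38.6 CPM without, a ratio of -0.94 (-1.18 to -0.70) and Fancb at -0.84 (-1.20 to -0.50). Both encode subunits of the Fanconi core complex. The list median was -0.05.

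Of 27 other damage signalling genes 22 had a ratio under 0, beside 48.2% of all genes, with a median of -0.09. Past 1.5-fold were 0 of the 27 in either direction, beside 6.28% of all genes on the higher side and 6.18% on the lower. The largest by size were Clspn, which links Atr to Chek1, at 0.33 (0.24 to 0.43), Rif1, a partner of Trp53bp1, at -0.33 (-0.41 to -0.24), and the checkpoint clamp gene Hus1 at -0.31 (-0.50 to -0.12). Of 30 measured genes of mismatch and excision repair 21 had a ratio under 0, beside the same 48.2%, with a median of -0.09. Past 1.5-fold was 1 of the 30, on the lower side, beside 6.18% of all genes. Ung, which removes uracil from DNA, was 1.54-fold lower at 87.4 CPM with Dox and 135 CPM without, and had a ratio of -0.62 (-0.75 to -0.50). The abasic site nuclease gene Apex1 stood at -0.51 (-0.70 to -0.33) and Smug1, another uracil glycosylase, at 0.41 (0.01 to 0.84).

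Many repair genes follow the cell cycle, so cycle genes are given beside them. Genes of S phase and replication had a median of -0.05, with 16 of 21 under 0, beside 48.2% of all genes. The G2/M and mitosis list had a median of 0.25, with 20 of 20 genes above 0, beside 51.8% of all genes. The part of the cell cycle in the ratios of the repair genes was not tested. In RNA from whole sorted populations, fewer cells of a phase and less RNA per cell cannot be told apart.

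**Figure D4:**
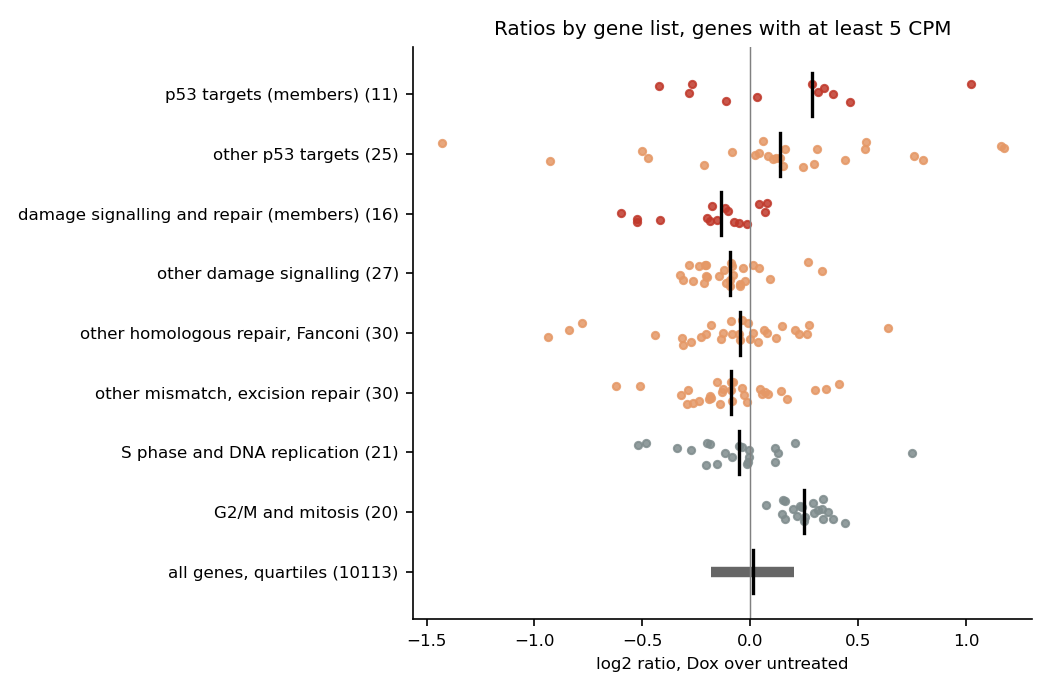
Log2 ratio of Dox over untreated for each gene with at least 5 CPM, by list, with the median as a black line and, for all 10113 genes, the quartiles as a grey bar. Medians lie at 0.29 and 0.14 for the p53 target lists, neither of which holds Mdm2 or Gadd45a. They lie between -0.14 and -0.05 for the damage signalling and repair lists, and at 0.25 for the mitosis list.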

How the data were processed

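RNA sequencing libraries of sorted ALL65 cells were compared, 1 library from mice given Dox and 1 from untreated mice. The authors deposited raw gene counts, which are unnormalized whole numbers. The submitters' processing notes name CASAVA 1.8.2, featureCounts and mm10. Aligner, annotation, strandedness and the handling of shared reads are not given in the sources used. Per the labels' design text there were 3 mice in each group and 2 runs per RNA, but each group has 1 deposited column, and the way these were combined is not stated. The gene lengths used for levels per kilobase are the deposited ones. The series table and the single-library tables differed in 0 values.

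Symbols came from RefSeq (GRCm38.p6), which named 25275 of 27179 genes. Exons of 13 of the 38 genes overlap a gene on the other strand in GENCODE M21, and without a stated strand setting such reads cannot be told apart. These are Ei24, Rrm2b, Ddb2, Plk3, Gadd45a, Atr, Trp53bp1, Brca2, Fancd2, Fanca, Rad54l, Mre11a and Msh6.

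TMM factors were computed with edgeR 4.0.16 in R 4.3.3 (0.984 for Dox, 1.02 for untreated). Ratio intervals are exact (Clopper-Pearson), from the raw counts of the gene in each library, and differences between 2 genes have normal intervals on the log scale from the 4 counts. Both, and the limit of 3 counts for a count of 0, cover counting error only. The intervals were tried on simulated counts that held counting error only, so that trial says nothing on spread between mice or runs. The members, lists and gene pairs were chosen with earlier results of these data known. Named genes were all 38 members, Ikzf1 and the 3 largest ratios past 5 CPM in each other list of p53 targets and repair genes. Some of these single-gene values are not reported here. Cdkn1a, Bax, Bbc3, Pmaip1, Sesn1, Btg2, Epha2, Pidd1 and the cell type markers were named after their values were seen. Alternatives were DESeq2 1.42.0 size factors, total counts, other prior counts and CPM minimums, interval bounds, thinned Dox counts and removal of the trend with gene length.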

Additional observations from a re-analysis of the deposited data

How the results depend on the processing

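With 1 library per group no spread between mice is known, and no replicate could be left out. No paired analysis was possible because each group had 1 library. Of 210 recomputed ratios of single genes, 0 left their counting interval and 4, all near 0, changed sign. Aen and Msh6 fell under 0 with total counts, to -0.01 and -0.004. With thinned Dox counts Fancd2 went to -0.02 and Rad54l to 0.01. The mismatch repair median, that of Msh6 alone, changed sign with it. The counts of genes above and under 0 shift with these changes. With total counts in place of TMM, 0 of the 38 genes were at least 2-fold higher. With the interval bound nearest to 0 set against the threshold, 1 was at least 1.5-fold higher, 0 were at least 1.5-fold lower and 0 were at least 2-fold higher. With Dox counts thinned to the untreated total, 0 were at least 1.5-fold lower. The Gadd45 median was 0.24 with a CPM minimum of 1 and with none, since Gadd45b and Gadd45g then entered.

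Over all genes, the counts at least 1.5-fold higher and lower were 965 and 1045 with a CPM minimum of 1, 409 and 328 with 20, 1800 and 2005 with none, and 322 and 292 with the interval bound. At least 2-fold, they were 407 and 440, 129 and 104, 784 and 744, and 115 and 141 under the same settings. The main counts were 635 and 625 at 1.5-fold and 223 and 227 at 2-fold. Depth limits Phlda3, Perp, Gadd45b and Gadd45g, which had under 5 CPM, and Eda2r, Plk2 and Gdf15, which had no counts.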
